A study of Saccharomyces cerevisiae with 6 samples.

Results

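Aminoacyl-tRNA synthetases are the enzymes that join each amino acid to its tRNA, and their genes were followed here in 2 strains of Saccharomyces cerevisiae grown in chemostats. The genes were taken from the authors' deposited table by name, 34 in all among 5479 gene models, with 13 genes for mitochondrial enzymes, 5 dual genes and 16 genes for cytosolic enzymes. A dual gene is one known to encode the cytosolic and the mitochondrial form of the same enzyme. The table itself names 29 of them and 3 were listed by systematic name (YDR341C, YHR020W and YNL247W), while SLM5 and GUS1 carry no gene name there and were found under YCR024C and YGL245W. Each of the 34 genes has 1 gene model, and all of them were tested by the authors.

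The strain IMY104 lacks ACS1 and ACS2, the acetyl-CoA synthetase genes, and carries the centromeric plasmid pUDC140 with genes of Enterococcus faecalis for a pyruvate dehydrogenase complex (pdhA, pdhB, aceF, lpd) and for its lipoylation (lplA, lplA2). CEN.PK113-7D, with intact ACS1 and ACS2 and no plasmid, is the strain it was compared with. There were 3 libraries of IMY104 and 3 of CEN.PK113-7D, each from its own culture, and in the table the label of the IMY104 libraries includes CEN.PK102-12A, another strain of the family. All cultures were aerobic and limited by glucose (7.5 g/L, with 500 ng/mL lipoic acid) at 30 °C and pH 5.0, and the dilution rate, which sets the growth rate, was 0.10 per h in both strains. The deleted genes matched the labels, with ACS1 at 0.882 FPKM in IMY104 against 1094 FPKM in CEN.PK113-7D, and ACS2 at 0.179 FPKM in IMY104 against 494 FPKM in CEN.PK113-7D, in the authors' deposited table.

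FPKM counts sequenced fragments per length of gene model and per total of fragments, so levels can be set side by side between genes. The table gives 1 FPKM value per strain over its 3 libraries. Libraries have no values of their own, so an SD cannot be given and the depth is unknown. A call means a q-value under 0.05 in the authors' deposited table, over all tested models. FPKM is a share of the RNA sequenced, so more mRNA of a gene per cell and less RNA of other genes cannot be told apart.

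Yeast makes proteins in the cytosol and, from a few genes of its mitochondrial genome, inside mitochondria, and both systems need a full set of charged tRNAs. All synthetases are encoded in the nucleus, most mitochondrial ones by genes of their own and some by a gene that also serves the cytosol. They fall into structural classes I and II, which differ in the fold of the catalytic domain. The products of mitochondrial translation are mainly subunits of the respiratory chain and the ATP synthase, while cytosolic synthetases serve growth and report amino acid supply through the uncharged tRNAs they leave behind.

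In IMY104 few synthetase genes changed, and those called were mostly mitochondrial. Of the 34 genes 6 rose and none fell, and 28 were not called, by the q-values of the authors' deposited table. Over all 5463 tested models 22.6% were called, 11.6% higher and 11.0% lower. The 6 genes are 17.6% of the set. Of the 13 mitochondrial genes 5 rose (38.5%), of the 5 dual genes none was called, and of the 16 cytosolic genes 1 rose (6.25%). No synthetase gene was lower at an unadjusted p under 0.05 from the authors' Cuffdiff comparison either. The median log2 fold change, taken as IMY104 over CEN.PK113-7D, was 0.20 for mitochondrial genes, 0.077 for dual genes and 0.092 for cytosolic genes, against 0.0083 over 5324 chromosomal genes. The mitochondrial minus cytosolic difference of medians was 0.11, and 0.068 after quantile normalization of the FPKM values, and it was not tested. All 13 mitochondrial genes had a log2 fold change above 0, as had 4 of 5 dual genes and 13 of 16 cytosolic genes, against 2787 of the 5324 chromosomal genes.

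**Figure D1:**
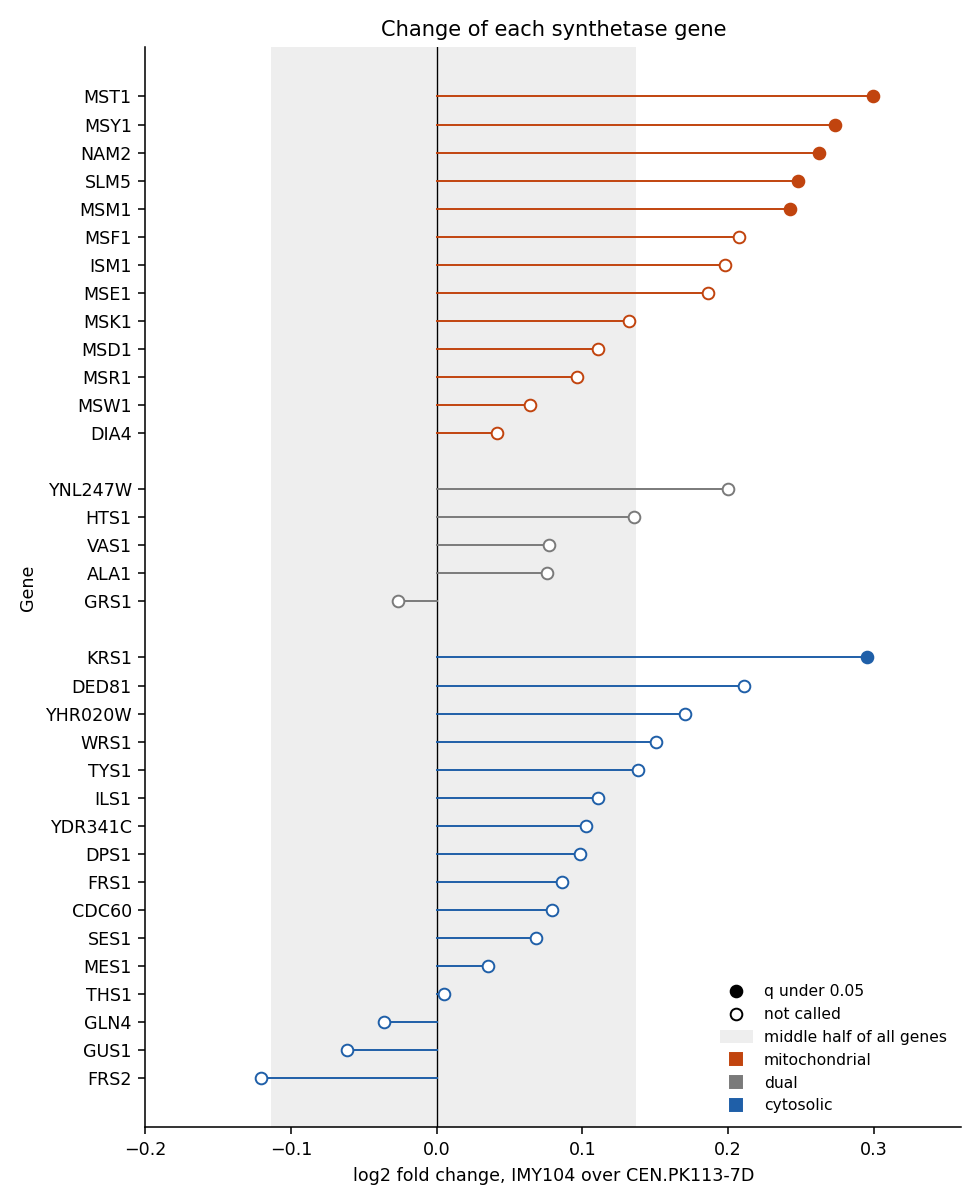
The log2 fold change (IMY104 over CEN.PK113-7D) of each of the 34 synthetase genes, with mitochondrial, dual and cytosolic genes from top to bottom. Filled points have q under 0.05, open points were not called, and the grey band spans the quartiles of all genes, -0.11 to 0.14. The 5 called mitochondrial genes and KRS1 lie between 0.24 and 0.30, and all mitochondrial genes lie right of 0.

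These changes are small and close to the limit of what the authors' test called. Genes within the synthetases' range of levels in both strains were counted by size of change. At an absolute log2 fold change of 0.15 to 0.20, 0 of 458 were called. At 0.20 to 0.25 it was 18.6% of 333, and at 0.25 to 0.30 94.3% of 176. The called synthetase with the highest q-value was MSM1 (q = 0.0454), and the uncalled ones with the lowest were DED81 (q = 0.106) and MSF1 (q = 0.110), in the authors' deposited table. At q under 0.01, a limit that 7.54% of all models passed as higher, none of the 34 was called. None reached a log2 fold change of 0.32 either, which 7.08% of all models did with q under 0.05, as higher. The 6 called synthetase genes, with 0.24 to 0.30, lie where the share of called genes changes most.

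Of the mitochondrial enzymes, MST1, which charges threonine tRNA (YKL194C, chromosome 11, 77191 to 78579), had 56.3 FPKM in IMY104 and 45.8 FPKM in CEN.PK113-7D in the authors' deposited table. In the authors' deposited table it rose with a log2 fold change of 0.30 (q = 0.0118), the largest of the 34 genes. MSY1, the enzyme for tyrosine (YPL097W, chromosome 16, 364881 to 366359), rose with 0.27 (q = 0.0201), and the authors' deposited table lists it at 85.4 FPKM in IMY104 against 70.6 FPKM in CEN.PK113-7D. These coordinates are those of the authors' gene models, counted from 1, and the assembly's name is not given in the sources used here.

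NAM2 charges leucine tRNA in mitochondria and is also needed there for the splicing of introns. The authors' deposited table has it at 38.0 FPKM in IMY104 against 31.7 FPKM in CEN.PK113-7D, a rise of 0.26 on the log2 scale (q = 0.0260). SLM5, for asparagine, rose with 0.25 (q = 0.0413), with 56.4 FPKM in IMY104 and 47.5 FPKM in CEN.PK113-7D, in the authors' deposited table. MSM1, for methionine, had 51.8 FPKM in IMY104 and 43.8 FPKM in CEN.PK113-7D in the authors' deposited table, and rose with 0.24. The called enzymes thus handle threonine, tyrosine, leucine, asparagine and methionine, and are of both structural classes.

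The other 8 mitochondrial genes were not called, and their log2 fold changes lay between 0.041 and 0.21, below those of the called ones. The authors' deposited table gives MSF1 (phenylalanine) a log2 fold change of 0.21 (unadjusted p = 0.0314 in the Cuffdiff comparison), ISM1 (isoleucine) 0.20 and MSE1 (glutamate) 0.19. For MSK1, the lysine enzyme, which also takes part in the import of a cytosolic lysine tRNA, the authors' deposited table has 0.13. Lower still in the authors' deposited table were MSD1 (aspartate) with 0.11, MSR1 (arginine) 0.097, MSW1 (tryptophan) 0.064 and DIA4, the probable seryl-tRNA synthetase, 0.041. The sum over the 13 genes was 719.6 FPKM in IMY104 and 636 FPKM in CEN.PK113-7D, a ratio of 1.13.

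Mitochondrial synthetase genes are expressed at low levels, so their background was taken at that level. They span 26.2 to 85.4 FPKM. Over the 1828 genes within this range in both strains the median was 0.013 on the log2 scale, and 8.10% were called higher. In the range of the cytosolic genes, 109.5 to 463 FPKM in both strains, the median over 1411 genes was 0.018. Genes outside the range in either strain were left out, also those that a change between strains had moved across a bound.

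**Figure D2:**
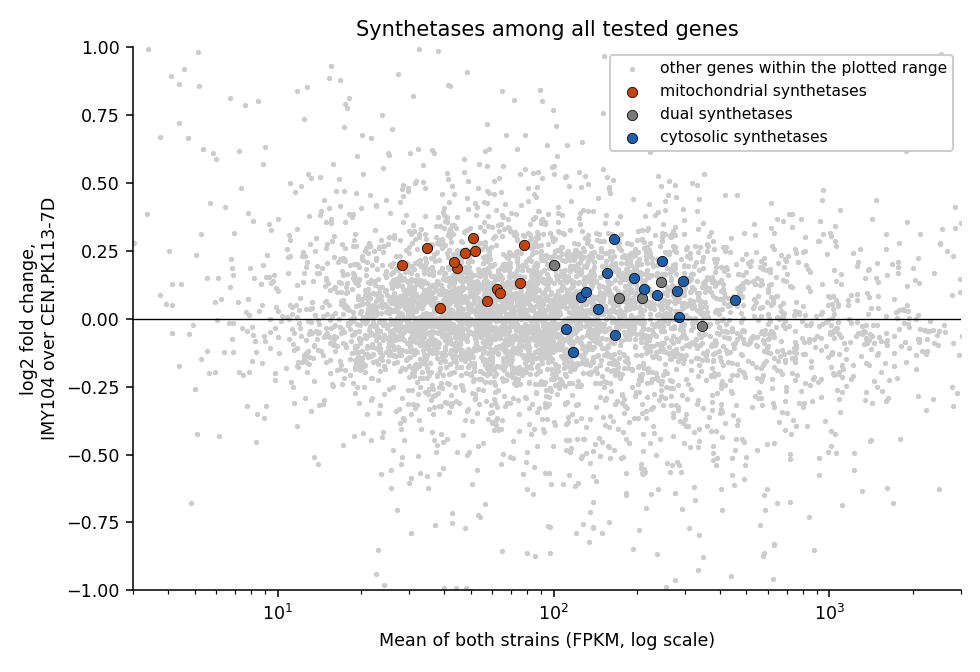
Log2 fold change (IMY104 over CEN.PK113-7D) against the mean FPKM of both strains on a log axis, with synthetases in colour and all other genes within the plotted range in grey. Mitochondrial synthetases lie at the low end of the synthetases' levels and all above 0.

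Among cytosolic enzymes KRS1 alone rose. It charges lysine tRNA (YDR037W, chromosome 4, 532371 to 534146) and had 182 FPKM in IMY104 against 148 FPKM in CEN.PK113-7D, in the authors' deposited table, which is 0.30 on the log2 scale (q = 0.0102). Next came DED81, the asparagine enzyme, which the authors' deposited table lists at 265 FPKM in IMY104 and 229 FPKM in CEN.PK113-7D, with a log2 fold change of 0.21. DED81 and YHR020W, the proline enzyme, are neighbours on chromosome 8, transcribed away from each other from a gap of 438 bp. In the authors' deposited table YHR020W had 0.17, and neither of this pair was called.

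The remaining cytosolic genes had smaller values, none of them called. The authors' deposited table gives log2 fold changes of 0.15 for WRS1 (tryptophan) and, in descending order, TYS1 (tyrosine) 0.14, ILS1 (isoleucine) 0.11, YDR341C (arginine) 0.10, DPS1 (aspartate) 0.098, CDC60 (leucine) 0.079, SES1 (serine) 0.068 and MES1 (methionine) 0.035. THS1, for threonine, was the nearest to 0, with 285 FPKM in IMY104, 284 FPKM in CEN.PK113-7D and 0.0052 on the log2 scale in the authors' deposited table. The log2 fold change was below 0 for GLN4 (glutamine, -0.036), GUS1 (glutamate, -0.061) and FRS2 (phenylalanine, -0.12) in the authors' deposited table. FRS1 and FRS2 encode the beta and alpha subunits of one cytosolic enzyme, and FRS1 had 0.086 in the authors' deposited table, so its subunits had values of opposite sign, both uncalled.

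None of the 5 dual genes was called, and 1 of them, YNL247W, had an unadjusted p under 0.05. In the authors' deposited table this enzyme for cysteine had 107 FPKM in IMY104 and 93.2 FPKM in CEN.PK113-7D, and 0.20 on the log2 scale (q = 0.117). HTS1 (histidine) had 0.14, VAS1 (valine) 0.077, ALA1 (alanine) 0.076 and GRS1 (glycine) -0.026 in the authors' deposited table. For such genes the mRNAs of both enzyme forms fall on the same model and cannot be told apart.

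Some gene models differ in length from the reference annotation. The length equalled that of the R64 annotation for 29 of 34 genes. VAS1 was 138 bp shorter (3177 against 3315 bp), YNL247W 39 bp and the mitochondrial MSR1 78 bp. The models of MSF1 (1425 against 1410 bp) and YHR020W (2079 against 2067 bp) were longer. In each of the 3 shorter genes the R64 reading frame has an ATG at exactly that distance from its first base, at base 139 in VAS1, base 40 in YNL247W and base 79 in MSR1. Alternative starts of this kind are how one gene can give a form with and a form without a mitochondrial targeting sequence. Only lengths were compared, since the authors' coordinates belong to another assembly than R64. Which end of a model differs was therefore not determined, and use of such a start was not tested for any of these genes.

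**Figure D3:**
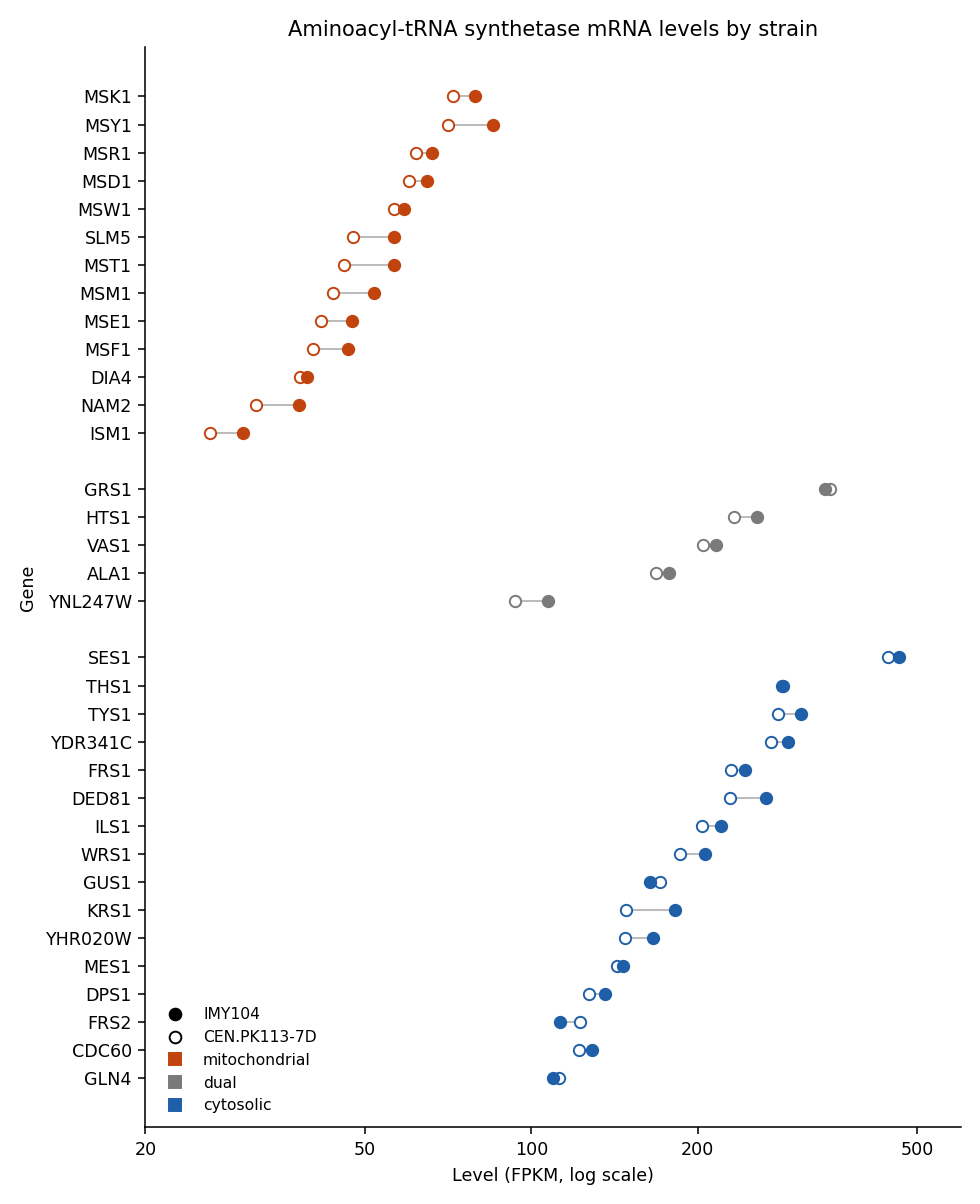
FPKM on a log axis of each synthetase gene in IMY104 (filled) and CEN.PK113-7D (open), ordered by level within mitochondrial, dual and cytosolic genes. Every mitochondrial gene lies below every dual and cytosolic gene in both strains, and the shift between strains is small beside the spread between genes.

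In both strains each mitochondrial gene had a lower level than every dual and cytosolic gene, while levels of dual and cytosolic genes overlapped. Mitochondrial synthetases ran from 30.1 (ISM1) to 85.4 FPKM (MSY1) in IMY104 and from 26.2 (ISM1) to 72.0 FPKM (MSK1) in CEN.PK113-7D, in the authors' deposited table. Dual genes ran from 107 to 341 FPKM in IMY104 and from 93.2 to 347 FPKM in CEN.PK113-7D, with YNL247W lowest and GRS1 highest, in the authors' deposited table. Cytosolic genes ran from 109.5 (GLN4) to 463 FPKM (SES1) in IMY104 and from 112 (GLN4) to 442 FPKM (SES1) in CEN.PK113-7D, in the authors' deposited table. The median level of mitochondrial genes was 29.0% of that of cytosolic genes in IMY104 and 25.7% in CEN.PK113-7D. SES1 and GRS1 were the highest of the 34 genes and NAM2 and ISM1 the lowest in both strains, and the largest shift in rank was that of GUS1, the 15th highest in IMY104 and the 12th in CEN.PK113-7D. Without values per library, neighbours in this order cannot be told apart beyond their spread.

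Among the 34 genes, 13 amino acids have a mitochondrial and a cytosolic enzyme from separate genes, which allows a comparison of both within the same amino acid. In 9 of the 13 the mitochondrial gene had the higher log2 fold change, and in 4 (lysine, tryptophan, serine, arginine) the cytosolic gene had. The difference was largest for phenylalanine against FRS2 (0.33), for threonine (0.29), glutamate (0.25), methionine (0.21) and leucine (0.18), counted as mitochondrial minus cytosolic log2 fold change. MST1 had 0.30 against 0.0052 for THS1, and MSE1 had 0.19 against -0.061 for GUS1, in the authors' deposited table. Lysine ran the other way, with 0.13 for MSK1 and 0.30 for KRS1 in the authors' deposited table. Aspartate, asparagine, serine and arginine enzymes differed by at most 0.037. All 5 called mitochondrial genes are among the 9 amino acids, but the calls and the pairs rest on the same log2 fold changes. These differences were not tested, since the table has no values per library.

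**Figure D4:**
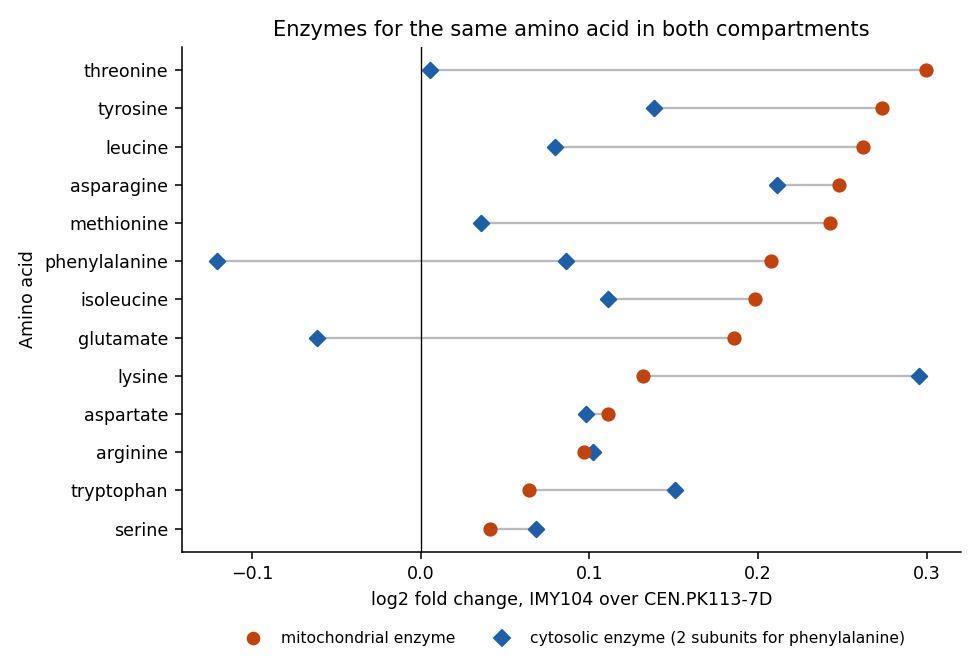
Log2 fold change (IMY104 over CEN.PK113-7D) of the mitochondrial enzyme (circles) and the cytosolic enzyme (diamonds) for each of 13 amino acids, ordered by the mitochondrial value. Phenylalanine has 2 diamonds, for FRS1 and FRS2. The circle lies to the right in 9 rows and the diamond in the rows of lysine, tryptophan, serine and arginine.

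The level of the mitochondrial gene was a median of 28.1% of its cytosolic counterpart in IMY104 and 24.8% in CEN.PK113-7D over the 14 pairs of genes. It ranged from 8.47% (DIA4 against SES1) to 47.6% (MSD1 against DPS1) in IMY104 and from 8.63% (DIA4 against SES1) to 48.5% (MSK1 against KRS1) in CEN.PK113-7D. In 10 of the 14 the share was higher in IMY104. These are the pairs with the higher mitochondrial log2 fold change, so this restates that comparison and is not a further result. The share of MST1 was 19.8% of THS1 in IMY104 and 16.1% in CEN.PK113-7D.

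Class I had 3 called genes of 17 and class II 3 of 17, all higher, which is 17.6% of each against 11.6% of all models, and the median was 0.11 on the log2 scale in each. Within class I the median was 0.20 for the 7 mitochondrial genes and 0.091 for the 8 cytosolic genes. Within class II it was 0.17 for the 6 mitochondrial genes and 0.092 for the 8 cytosolic genes.

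Promoters of 4 genes are shown as examples with and without the motifs that were counted over all synthetase promoters. Sequences come from the RefSeq annotation of assembly R64 of strain S288C, 250 bases before to 50 after the first base of the gene, and the strains measured here may differ from it. Capitals mark TGACTC, the core of the site of Gcn4, the activator of amino acid synthesis genes, on either strand, and AAAATTTT, the core of an element common upstream of ribosome biogenesis genes. YDR341C and THS1, cytosolic genes without a call, hold both motifs. MST1 and SLM5, mitochondrial genes that rose, hold neither, like every other mitochondrial gene in this window, called or not. KRS1, the cytosolic gene that rose, holds TGACTC and no AAAATTTT.
YDR341C (chrIV:1153577-1153876, minus strand): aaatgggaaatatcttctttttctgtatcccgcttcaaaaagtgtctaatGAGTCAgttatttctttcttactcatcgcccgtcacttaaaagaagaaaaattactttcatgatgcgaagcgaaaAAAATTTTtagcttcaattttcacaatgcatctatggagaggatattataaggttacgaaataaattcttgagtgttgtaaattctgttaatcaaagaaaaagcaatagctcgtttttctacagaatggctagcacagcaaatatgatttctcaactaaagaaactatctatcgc
THS1 (chrIX:212249-212548, plus strand): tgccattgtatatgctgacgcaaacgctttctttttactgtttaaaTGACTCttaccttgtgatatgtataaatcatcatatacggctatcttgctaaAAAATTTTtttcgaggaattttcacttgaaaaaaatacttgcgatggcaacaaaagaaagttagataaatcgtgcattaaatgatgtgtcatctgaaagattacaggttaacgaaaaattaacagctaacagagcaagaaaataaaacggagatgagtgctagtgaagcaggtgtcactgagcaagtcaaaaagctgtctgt
MST1 (chrXI:78597-78896, minus strand): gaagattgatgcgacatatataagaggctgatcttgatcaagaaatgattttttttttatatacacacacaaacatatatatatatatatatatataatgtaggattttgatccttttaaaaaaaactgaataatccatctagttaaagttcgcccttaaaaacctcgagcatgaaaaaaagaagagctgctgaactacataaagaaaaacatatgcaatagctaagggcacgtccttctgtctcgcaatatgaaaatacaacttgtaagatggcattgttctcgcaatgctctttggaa
SLM5 (chrIII:162173-162472, minus strand): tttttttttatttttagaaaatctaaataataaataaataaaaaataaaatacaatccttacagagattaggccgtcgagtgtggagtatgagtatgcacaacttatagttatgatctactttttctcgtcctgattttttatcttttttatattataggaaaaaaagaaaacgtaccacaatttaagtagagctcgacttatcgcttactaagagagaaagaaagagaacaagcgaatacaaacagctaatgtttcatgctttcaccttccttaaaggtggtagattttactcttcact

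AAAATTTT, which reads the same on both strands, was found in none of the 13 mitochondrial promoters, in 3 of 5 dual promoters and in 9 of 16 cytosolic promoters, against 9.03% of 6001 promoters of the same length. In YDR341C it starts 125 bases before the gene and in THS1 152 bases before. TGACTC on either strand was in none of the 13 mitochondrial promoters, in 3 of 5 dual and 6 of 16 cytosolic promoters, against 7.98% of all. The longer form TGACTCA, which contains it, was the motif planned, and TGACTC was chosen after seeing the data. TGACTCA was in 3 cytosolic promoters (GLN4, YDR341C and YHR020W) and in 2.73% of all. GATGAG was in 1 of 13 mitochondrial, 2 of 5 dual and 5 of 16 cytosolic promoters against 20.4% of all, and CCAAT in 3, 2 and 7 of them against 43.3% of all, both on either strand. With 500 bases before the start, TGACTC was in 2 of 13 mitochondrial promoters against 12.65% of all. Differences between compartments in these counts were not tested. A match of letters is a description of the sequence and not a site shown to be used.

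Of 7 partners and relatives of the synthetases 3 rose and none fell, against 11.6% of all models higher and 11.0% lower, and the 3 act or are placed in mitochondria. At q under 0.01 none of the 7 was called, against 7.54% of all models called higher. HER2 and GTF1, subunits of the amidotransferase that makes mitochondrial glutamine tRNA from tRNA charged with glutamate, rose with log2 fold changes of 0.27 (q = 0.0242) and 0.26 (q = 0.0409) in the authors' deposited table. For PET112, the further subunit, the authors' deposited table has 0.15 and no call. AIM10, which resembles prolyl-tRNA synthetases and is placed in mitochondria, rose with 0.27 (q = 0.0184), with 56.2 FPKM in IMY104 and 46.5 FPKM in CEN.PK113-7D, in the authors' deposited table. The cytosolic members had values near 0, with -0.023 for ARC1, the cofactor that binds the GUS1 and MES1 enzymes, -0.024 for GRS2, a second glycyl-tRNA synthetase gene, and -0.020 for DTD1, which removes D-amino acids from tRNA, in the authors' deposited table.

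Of 12 genes for mitochondrial tRNA modification and translation factors 5 rose, none fell, and all 12 had a log2 fold change above 0, with a median of 0.23, against 11.6% of all models called higher, 11.0% lower and 2787 of 5324 genes above 0. GUF1, a translation factor related to bacterial LepA, rose with 0.40 (q = 0.00047), the initiation factor gene IFM1 with 0.36 (q = 0.0016) and the elongation factor gene MEF1 with 0.28 (q = 0.0220) in the authors' deposited table. MEF2, for a relative of MEF1 that acts in ribosome recycling, rose with 0.35 (q = 0.00087), and MTO1, which modifies wobble uridines, rose with 0.27 (q = 0.0258), again by the authors' deposited table. The other 7, among them the elongation factor gene TUF1 with 0.20, have no call in the authors' deposited table. For 70 mitochondrial ribosomal protein genes the median log2 fold change was 0.17, with 15 called higher (21.4%) and 1 lower (1.43%). For 106 cytosolic ribosomal protein genes it was -0.067, with none called higher and 3 lower (2.83%), set against the same shares of all models. Both lists were picked by gene symbol, so they can miss members under other names and hold genes of like name. The median of the mitochondrial synthetases, 0.20, lies between those of the mitochondrial ribosomal proteins and the mitochondrial factors, and that of the cytosolic synthetases, 0.092, is above that of the cytosolic ribosomal proteins. None of these differences between lists was tested.

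**Figure D5:**
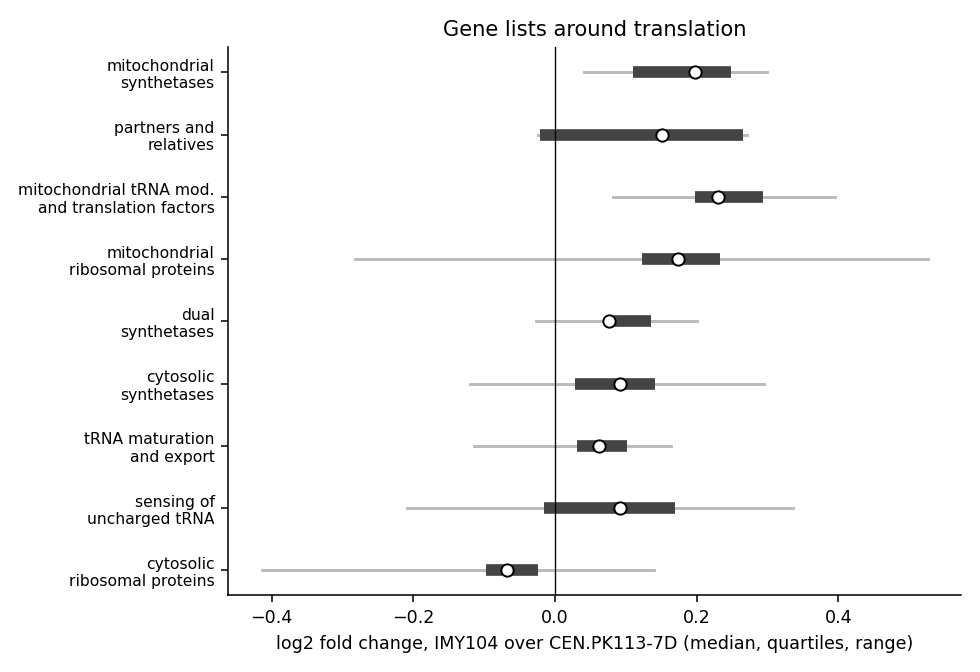
Log2 fold change (IMY104 over CEN.PK113-7D) of gene lists of translation, with the median as an open point, quartiles as a thick bar and the full range as a thin line. The mitochondrial lists have medians of 0.17 to 0.23, the cytosolic synthetases 0.092 and the cytosolic ribosomal proteins -0.067.

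None of the 11 genes of tRNA maturation and export was called (0 at an unadjusted p under 0.05 in the Cuffdiff comparison). Of all models 11.6% were called higher and 11.0% lower. The median of the 11 genes was 0.062 on the log2 scale. These genes include CCA1, which adds the end of the tRNA to which the amino acid is joined, with 0.033, and the exporter LOS1 with 0.11, in the authors' deposited table. Of 6 genes in or around the sensing of uncharged tRNA 1 was called, as higher (16.7%), against the same shares of all models. It was YIH1, an inhibitor of the kinase Gcn2, with 0.34 on the log2 scale (q = 0.0059) in the authors' deposited table. For GCN2 itself the authors' deposited table has 0.049 and no call. GCN4, the transcription factor made when Gcn2 is active, had 4717 FPKM in IMY104 and 5450 FPKM in CEN.PK113-7D, in the authors' deposited table, or -0.21 on the log2 scale, with no call (q = 0.149). GCN4 is controlled mainly in translation, so its mRNA level does not measure its activity.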

How the data were processed

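RNA was sequenced from 6 libraries, 3 per strain, each from a culture of its own per the labels. The submitters' processing notes list Cuffdiff, Cufflinks, SAMtools (0.1.7-r510), BWA (0.5.9-r16) and CASAVA (1.8.2), without roles. The genome build is not given in the sources used here. What the authors deposited is, per the file headers, 1 FPKM value per strain, the log2 fold change, a signed fold change and test statistic (both scores), p-value, q-value and call, for 5479 gene models of which 16 were not tested. The protocols name no step that marks strand, so antisense reads cannot be separated from a gene's own.

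Recomputed log2 ratios of FPKM matched those deposited within 4.6e-05, and the deposited q-values equalled recomputed Benjamini-Hochberg values within 5.2e-07. The longest model per gene on its own chromosome was used, with symbols of assembly R64. Calls are the authors' (Cuffdiff, q under 0.05). A standard error was to be derived from p and the test statistic only if they fitted a normal approximation. The normal quantile of p was a median of 1.45 times the statistic (5th to 95th percentile 0.76 to 1.64), so none is given. A planned fit over libraries was not possible with 1 value per strain, and depth per library and its precision are unknown.

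All 34 synthetase genes are named. In neighbouring lists other than the ribosomal proteins each called gene and a few fixed ones are named, with other uncalled members as examples. Called ribosomal protein genes were counted and not named. The members, lists and motifs were chosen with earlier results of these data known. One promoter sequence is not reported here. The calculations used pandas 2.3.3 in Python 3.11.15. Only the Benjamini-Hochberg and quantile normalization steps were tested on simulated data. Alternatives were other thresholds, pseudocounts of 1 and 5 FPKM, scalings, model choices and promoter windows.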

Additional observations from a re-analysis of the deposited data

How the results depend on the processing

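Of the alternatives, changes of model (every model of a gene, at least 300 bp) altered no count and no median beyond rounding, since each gene has 1 long model, and a q-value recomputed over 1 model per gene gave the same side of the threshold for all 34 genes. A stricter threshold removed the calls. At q under 0.01, and likewise at q under 0.05 with a log2 fold change of at least 0.32, the genes called higher were 0 of the mitochondrial, 0 of the cytosolic and 0 of all 34 genes. At an unadjusted p under 0.05 they were 10 of all 34, with 2 cytosolic and 1 dual gene, against 17.1% of all models. At q under 0.01, which 7.54% of all models passed as higher, 0 of the 7 partners and relatives were called higher. Of the 12 mitochondrial tRNA modification and translation factors 3 were, and of the 70 mitochondrial ribosomal proteins 6, with 0 lower. The mitochondrial minus cytosolic difference of medians, 0.11 as reported, fell to 0.068 with quantile normalization, where the mitochondrial median was 0.18 and the cytosolic 0.11, and was 0.079 with a pseudocount of 5 FPKM. The cause was not tested. The value of THS1 changed sign to -0.0031 when centred on the median of all genes. Counting dual genes with the mitochondrial group gave a median of 0.16, and with the cytosolic group 0.086. With promoter settings chosen after seeing the data, the core TGACTC was in 9 of the 21 cytosolic and dual promoters (7.98% of all promoters). TGACTCA, the motif planned, was in 3 (2.73% of all). With 500 bases before the start, CCAAT was in 8 of 13 mitochondrial promoters (62.43% of all) and TGACTC in 2 (12.65% of all). AAAATTTT and TGACTCA stayed at 0 of 13 mitochondrial promoters in each window run. No paired analysis was possible because the table has 1 value per strain and the labels give no replicate numbers. Leaving out each replicate was not run for the same reason, so the weight of any 1 library is unknown, and no precision can be given beyond the authors' q-values.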
